A study of Mus musculus with 9 samples.

Results

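Glycerol kinase, encoded by the X-linked gene Gk, was followed in mouse liver before birth, in the mature organ and in liver tumours. Gk was read from 1 custom probe, the only one that could be named for it, by the RefSeq identifier NM_008194.3. The 1-colour array, for long non-coding and protein-coding RNAs, held 60915 probes, most of them without a gene name here. Whether any of those also measures Gk was not tested. The Gk probe was spotted 20 times on every array and was among 15 probes with a RefSeq identifier. It was chosen for the role of the gene, with earlier results of these arrays known. Fetal liver came from 3 samples taken at embryonic day 17.5, adult liver from 3 samples of 2-month-old males, and liver cancer from 3 samples of tumours in 1-year-old males. Diethylnitrosamine (DEN), a chemical that damages DNA in hepatocytes, had been given to raise the tumours, which were checked by histology. Strain, the sex of the embryos and the dose of DEN are not given in the sources used here. Age, DEN exposure and tumour tissue differ together between the tumours and adult liver and cannot be told apart. Samples of a group are called independent without naming animals or litters, so the p-values measure only the spread between these samples.

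Glycerol kinase transfers a phosphate from ATP to glycerol and yields glycerol 3-phosphate. In mature liver, glycerol set free by fat breakdown enters hepatocytes mainly through the channel Aqp9. After phosphorylation it serves either as the backbone of new triglycerides and phospholipids or, once oxidised to dihydroxyacetone phosphate by the Gpd enzymes, as a substrate for glucose synthesis. In humans, loss of the enzyme causes an X-linked disorder in which glycerol accumulates in blood and urine.

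The arrays came from 2 scans, with liver cancer replicates 2 and 3 in the second and all others in the first. Between 40.5% and 54.8% of probes were well above background on the first-scan arrays, and 69.3% and 67.8% on the other two. Pearson correlations between arrays of a group, across tested probes, ranged from 0.978 to 0.985 in fetal and adult liver and from 0.931 to 0.973 in liver cancer. No probe could be named for any of 6 hepatocyte markers or 4 fetal hepatoblast markers, so the tissue labels were not checked against them.

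Gk was measured above background throughout: all 20 spots were well above background on each of the 9 arrays, and no spot was saturated. In fetal liver the median processed signal of the spots, in scanner intensity units after background subtraction, was 85.3, 139 and 73.1 on replicates 1 to 3. In adult liver it was 570, 666 and 728. In the tumours it was 378 on replicate 1 and 2129 and 1506 on replicates 2 and 3, the pair from the second scan, whose signals were higher overall. Fetal signals were dim but distinct from background, at 16.0 to 31.8 times the median of the negative control spots of the same array, against 118 to 141 times in adult liver. These ratios use values after background subtraction. Before subtraction the margin was narrower, at 3.25, 4.52 and 3.22 times the local background on the fetal arrays, against 12.6 to 14.4 times in adult liver.

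Because the arrays differed in overall brightness, levels were expressed as log2 of the processed signal relative to the 75th percentile of each array. On this scale Gk stood at -0.82, -0.60 and -0.91 in the 3 fetal livers, below the 75th percentile in each. It stood at 2.62, 2.66 and 2.75 in the 3 adult livers and at 2.10, 2.37 and 2.06 in the 3 tumours. Adult liver was thus highest, the tumours lay slightly below it and fetal liver lay far below both, with no overlap between any pair of groups. Such separation was common. It was seen for 66.1% of tested probes between fetal and adult liver, 42.6% between liver cancer and adult liver and 58.3% between liver cancer and fetal liver. The group means were 2.67 ± 0.06 (SD, n = 3) in adult liver, 2.18 ± 0.17 in liver cancer and -0.78 ± 0.16 in fetal liver. In linear terms the Gk signal was 6.38 times the 75th percentile in adult liver, 4.52 times in the tumours and 0.583 times in fetal liver.

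**Figure D1:**
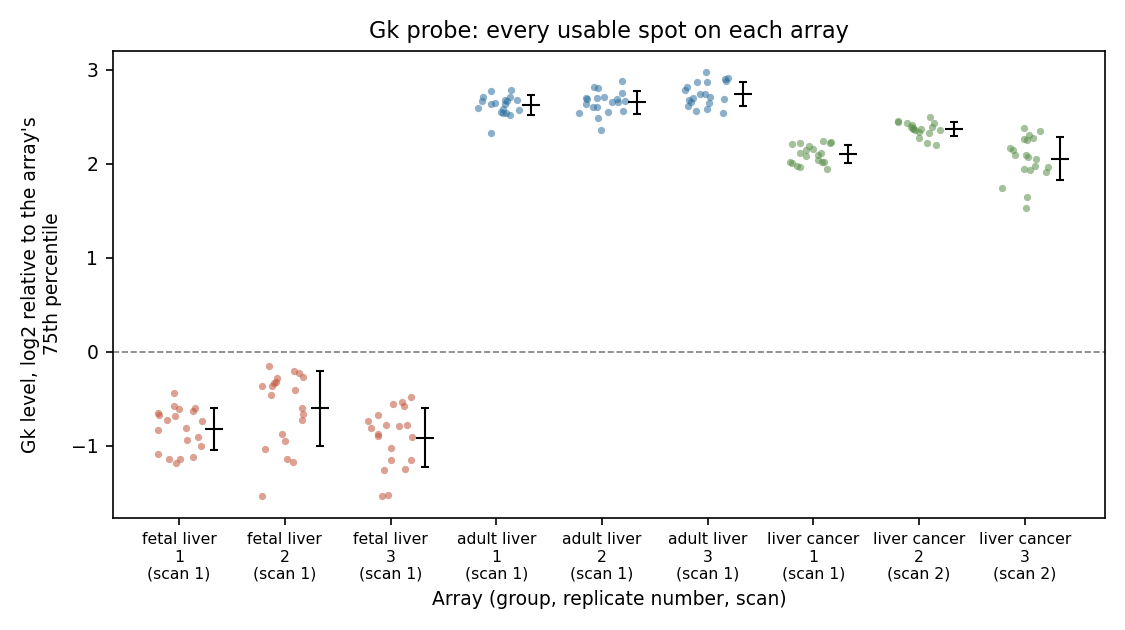
Gk level in every usable spot (points, 18 to 20 per array) on the 9 arrays, in log2 units relative to the array's 75th percentile (dashed line); black marks give the mean and SD over spots. All fetal spots lie below the line, between -1.54 and -0.15, all adult spots between 2.33 and 2.98, and the tumour spots between 1.53 and 2.50.

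The 20 spots allow the error within an array to be set beside the error between samples. The SD between spots was 0.11 to 0.13 log2 on the adult arrays and 0.08 to 0.23 on the tumour arrays. It was larger on the dim fetal arrays, at 0.23 to 0.39. No fetal spot reached the level of any adult or tumour spot, whereas adult and tumour spots overlapped. Between samples of a group the SD of the array means was 0.06 in adult liver, 0.17 in liver cancer and 0.16 in fetal liver, each taken over means of 18 to 20 spots.

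The first comparison, fetal against adult liver, asked which transcripts distinguish the developing organ. Gk was 10.95-fold lower in fetal liver, with a 95% interval of 8.19-fold to 14.6-fold. The log2 difference was -3.45 ± 0.19 (SE, n = 3 per group, limma adjusted p = 6.92e-07). The differences between single fetal and adult arrays ran from -3.66 to -3.22, and at each of the 20 spot positions the fetal mean was below the adult mean, by -3.90 to -3.11. An exact permutation test of the same difference, two-sided, gave p = 0.1, the smallest value that 3 arrays against 3 allow. Large differences were common in this comparison: 39.6% of the 34103 tested probes passed an adjusted p of 0.05 and a 2-fold difference, and 18.4% passed as lower in fetal liver. A more negative difference than that of Gk was measured on 1171 probes (3.43%). The arrays were made from whole tissue, so fewer hepatocytes in the sample and less Gk RNA per hepatocyte cannot be told apart. All 6 arrays belong to the first scan. The size of the difference depended on the background correction: with normexp on the raw median signals, which adds an offset of 50 and shrinks dim signals, it was -2.37 after quantile normalization and -2.15 after scaling to the 75th percentile, and remained past the threshold.

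Fetal liver also makes blood, and Tfrc, the transferrin receptor through which red cell precursors and dividing cells take up iron, was the only one of 6 erythroid markers with a named probe. Its level was highest before birth, at 9.74 ± 0.05 (SD, n = 3), against 6.75 ± 0.04 in adult liver and 8.04 ± 0.54 in the tumours, the reverse order to Gk. Tuba1b, an alpha-tubulin and the only one of 3 proliferation markers with a named probe, stood at 10.5 ± 0.20, 7.22 ± 0.12 and 8.44 ± 0.97 in the same groups. In the tumours both genes differed by scan. Tfrc was at 8.67 on the first-scan array and at 7.73 on each second-scan array, and Tuba1b at 9.55 against 7.84 and 7.92. The part of blood-forming or dividing cells in the Gk difference was not tested.

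The second comparison asked which transcripts distinguish the tumours from healthy mature liver. The log2 difference of Gk between liver cancer and adult liver was -0.50 ± 0.19 (SE, n = 3 per group), a level in the tumours of 0.708 times that in adult liver. It did not pass the adjusted threshold (limma adjusted p = 0.0702) and was under the minimum of 2-fold. Its 95% interval, not adjusted over all probes, ran from -0.92 to -0.08. Whether the interval reached a 2-fold fall depended on the processing: it did under 6 of 19 alternatives, among them the first scan alone (-1.02 to -0.12) and median scaling (-1.31 to -0.24), and on leaving out any of 3 of the 6 arrays. It held equal levels under 5 of the 19 and on leaving out 3 of the 6. Each of the 3 tumours was below each of the 3 adult livers, with differences between single arrays of -0.69 to -0.25 (exact permutation test, two-sided, p = 0.1). Groups lying apart in this way were seen for 42.6% of tested probes, and 24.1% were called in this comparison. The Gk difference lay below the median of all tested probes (0.01), 28.7% of which had a more negative one.

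The tumour difference held within the first scan, where replicate 1 as the only tumour array gave -0.57 ± 0.19 (SE), again without passing (limma adjusted p = 0.0734); that array is assumed to vary like the others. The size depended on the scaling. It was -0.78 when arrays were scaled to their median, which moved the median difference of all tested probes from 0.01 to -0.27. It was -0.03 when they were scaled to the mean of Hprt, Gusb and Ppia, often used as reference genes, which moved that median to 0.48. These 3 genes were lower on the second-scan tumours, with Hprt at 7.37 and 7.36 against 8.26 on the first-scan tumour, Gusb at 3.56 and 3.55 against 4.52, and Ppia at 9.28 and 9.45 against 10.3. Within the first scan, an alternative chosen after seeing the data, the same scaling gave -0.73 (limma adjusted p = 0.0658) with 1 tumour array. With normexp correction it was -0.40 after quantile normalization, and 0.0058 after scaling to the 75th percentile. Under none of the alternatives run was Gk called between the tumours and adult liver.

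The third comparison, liver cancer against fetal liver, asked how far the tumours lie from the fetal state. Gk was 7.76-fold higher in the tumours, with a 95% interval of 5.80-fold to 10.4-fold. The log2 difference was 2.96 with an SE of 0.19 (n = 3 per group, limma adjusted p = 1.9e-06). Single arrays differed by 2.66 to 3.28. In this comparison 42.4% of tested probes were called, 6950 higher and 7512 lower in the tumours, or 10978 and 4612 when scaled to Hprt, Gusb and Ppia. The probes called higher were 20.4% of those tested, and 4.67% had a larger positive difference than Gk. Within the first scan the value was 2.88 ± 0.19 (SE, limma adjusted p = 6.38e-05), with replicate 1 as the only tumour array, again assumed to vary like the others. With normexp it was 1.97 after quantile normalization and 2.15 after scaling to the 75th percentile, called in each case. Lower levels in fetal liver than in both other groups, each past the threshold, were found for 11.9% of tested probes. Such a pattern without a call between the tumours and adult liver, the pattern of Gk, was found for 8.24%. These comparisons share arrays, so the fetal level enters both.

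**Figure D2:**
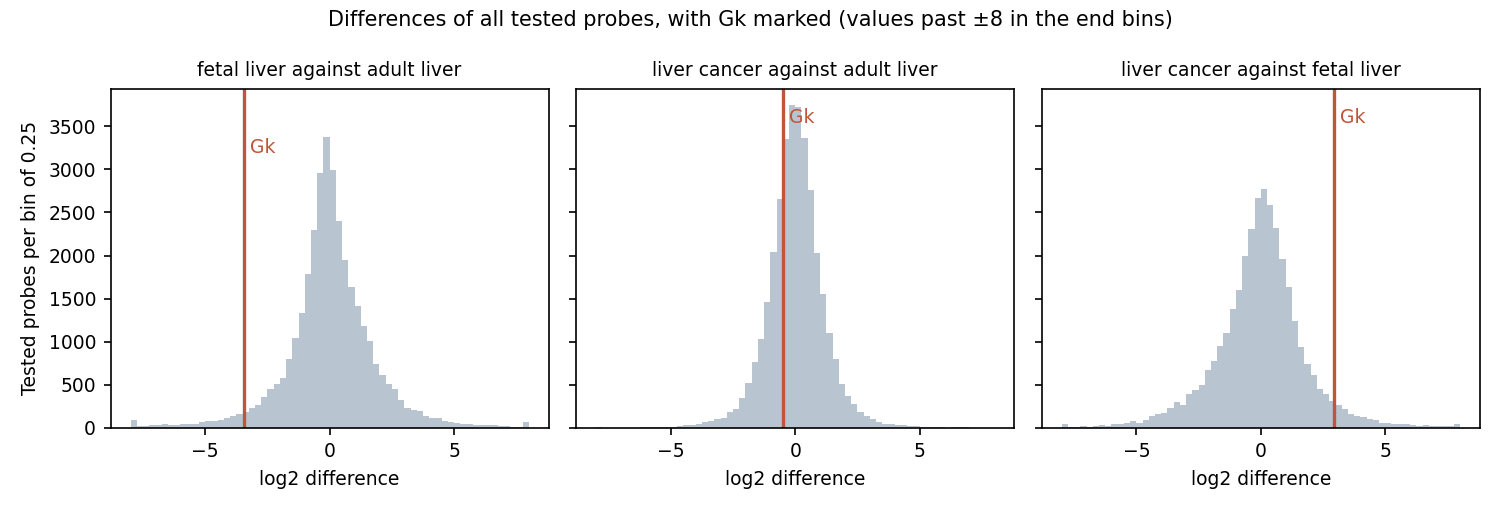
Histograms of the log2 differences of the 34103 tested probes in the 3 comparisons (first group minus second), in bins of 0.25, with the Gk difference as a red line. Gk lies in the lower tail for fetal against adult liver (-3.45) and in the upper tail for liver cancer against fetal liver (2.96). For liver cancer against adult liver (-0.50) it lies below the centre, with 28.7% of probes more negative.

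Of a list of genes of glycerol handling, from the Aqp channels and Gpd enzymes to the acyltransferases Gpam and Dgat2, only Gk (1 of 16) had a named probe. None of 8 genes of glucose synthesis and none of 5 genes of lipolysis and its control had one. Of 12 genes of glycolysis and the pentose phosphate pathway 3 were named: Gapdh, Ldhal6b and G6pd2. Gapdh, the glycolytic enzyme that oxidises glyceraldehyde 3-phosphate, was not called in any comparison. Its differences were -0.36 between fetal and adult liver and -0.75 between liver cancer and adult liver. The tumours differed by scan: Gapdh was at 10.8 on the first-scan tumour, above the adult arrays (10.6 on each), and at 9.33 and 9.43 on the second-scan tumours. G6pd2, a copy of the gene for glucose 6-phosphate dehydrogenase, which opens the pentose phosphate pathway, ran opposite to Gk, with means of 2.16 ± 0.10 (SD, n = 3) before birth, -0.37 ± 0.09 in adult liver and 0.28 ± 0.12 in the tumours.

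The likeness of other probes to Gk was described by the Pearson correlation r of their levels over the 9 arrays, which fall into 3 groups, so that r mainly reflects differences between groups. Among the 14 other probes with a RefSeq identifier, B2m was most like Gk (r = 0.93), followed by Ldhal6b (r = 0.84) and Gapdh (r = 0.04). B2m, which encodes the invariant subunit of MHC class I molecules, was at 8.70, 8.62 and 8.70 in fetal liver and at 10.3 on each adult array. The tumours differed among themselves, at 10.5 on replicate 1 and 9.62 and 9.60 on replicates 2 and 3. Ldhal6b, a lactate dehydrogenase-like gene, shared the low fetal level (-2.40 ± 0.05, SD, n = 3) but varied widely in the tumours, at -0.05, 2.18 and 1.37. On both genes, as on Gapdh, Tfrc, Tuba1b, Actb and Rpl13a, the tumour arrays of the second scan stood apart from the array of the first. On Gk the first-scan tumour, at 2.10, lay between the others.

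The least like Gk were G6pd2 (r = -0.99), Rpl13a, a protein of the large ribosomal subunit (r = -0.96), and Tfrc (r = -0.93). G6pd2 stood at 2.19, 2.05 and 2.25 on the fetal arrays, at -0.29, -0.36 and -0.46 on the adult arrays and at 0.39, 0.30 and 0.16 on the tumour arrays. For G6pd2, as for Gk, the tumours lay much nearer to adult liver than to fetal liver, and the groups did not overlap. The G6pd2 difference between liver cancer and adult liver was 0.65 (limma adjusted p = 0.021), under the 2-fold minimum.

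**Figure D3:**
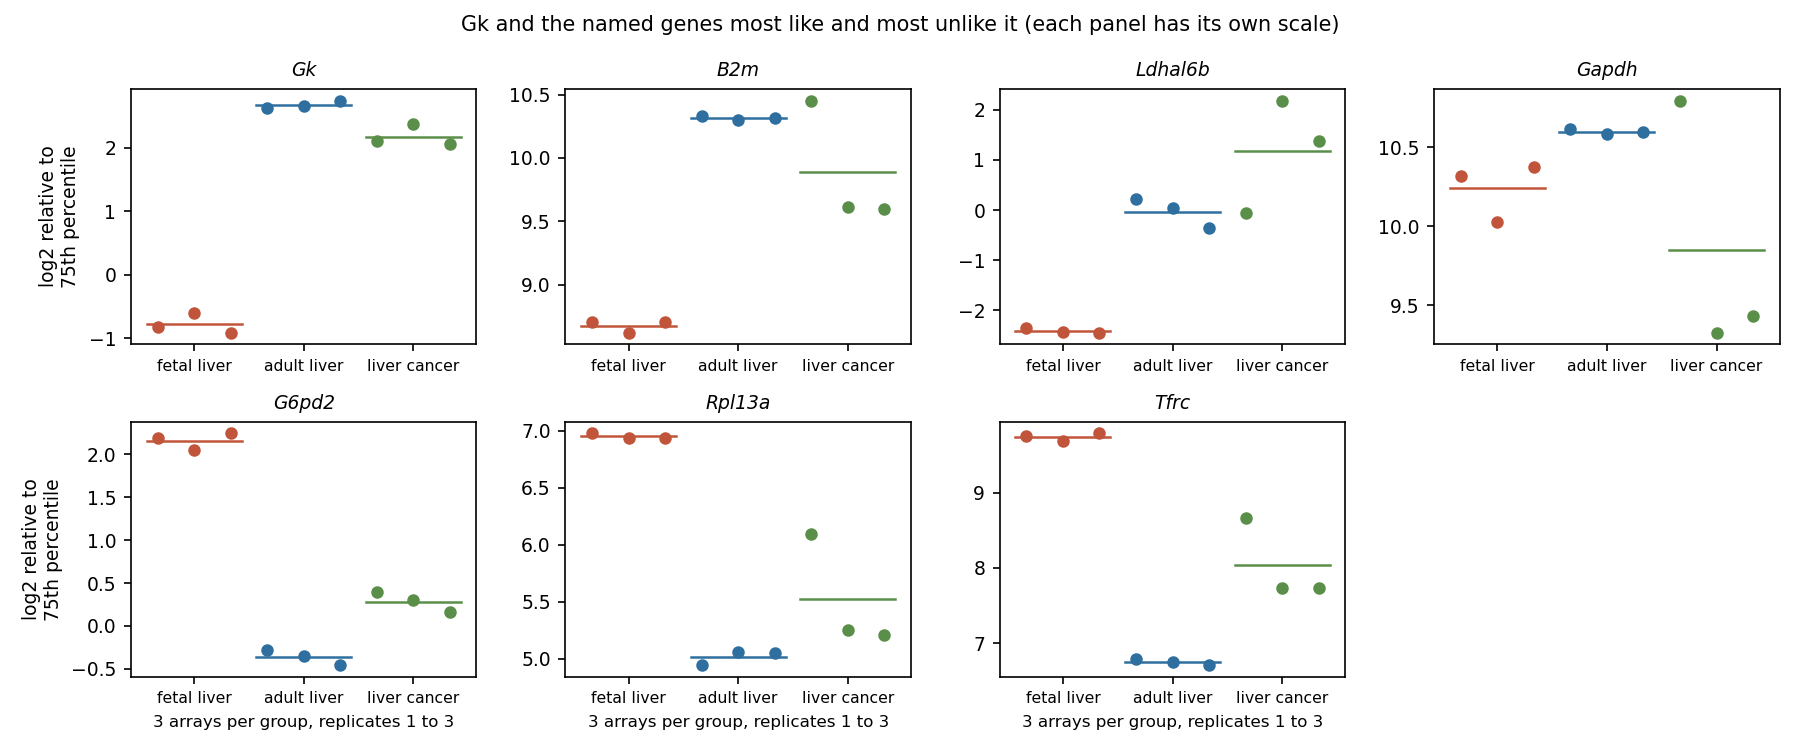
Levels of Gk, of the 3 named genes most like it (B2m, Ldhal6b, Gapdh) and of the 3 least like it (G6pd2, Rpl13a, Tfrc) on the 9 arrays, in log2 units relative to the array's 75th percentile; points are arrays and lines group means, and each panel has its own scale. Gk and G6pd2 show narrow groups in opposite order, while B2m, Ldhal6b, Gapdh, Rpl13a and Tfrc spread more widely in liver cancer.

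Among all other probes, ASMM10P029183 (r = 0.9998), ASMM10P022310 (r = 0.999) and ASMM10P033261 (r = 0.999) followed Gk most closely. These carry identifiers of the array maker and no gene name, so whether any of them measures Gk itself was not tested. ASMM10P022310 was well above background on all 9 arrays, with means of 1.07 ± 0.12 (SD, n = 3) before birth, 4.38 ± 0.12 in adult liver and 3.93 ± 0.04 in the tumours. The others were well above background on the 6 adult and tumour arrays alone, so their r rests in part on fetal values at background. The most opposed were ASMM10P050073 (r = -0.999), ASMM10P025819 (r = -0.998) and ASMM10P048314 (r = -0.998). ASMM10P048314 was well above background on all 9 arrays. The other two were so on 5, the fetal arrays and the second-scan tumours, so their r rests in part on values at background. Of the lincRNA-named probes (long intergenic non-coding RNA) mouselincRNA1634+_P1 (r = 0.977) and humanlincRNA0083-_P1 (r = 0.962) were nearest, well above background on 8 and 5 of the 9 arrays. A likeness above 0.9 was shared by 2324 of 33243 probes (6.99%), and by 13 of 481 lincRNA-named probes (2.70%). An r below -0.9 was more common, found for 3376 probes (10.2%).

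The ratio of Gk to each of the 14 other named probes on the same array does not depend on the scaling of the arrays. Relative to every one of these genes Gk was lower in fetal than in adult liver, by -6.76 log2 against Tuba1b to -1.08 against Ldhal6b, and the 2 groups did not overlap for any of the 14. Relative to 13 of the 14 it was higher in the tumours than in fetal liver without overlap, the exception being Ldhal6b (-0.62). The 14 ratios share the Gk values and are not independent. Of all tested probes, 96.6% had a less negative difference than Gk between fetal and adult liver. Between the tumours and fetal liver 95.3% had a less positive one. Most probes would thus give ratios of the same sign. Between liver cancer and adult liver the ratios differed by scan. On the first-scan tumour Gk was lower than on every adult array relative to all 14 genes, by -2.90 against Tuba1b to -0.17 against Hsp90ab1 from the adult mean. On both second-scan tumours it was above the adult mean relative to 7 genes and below it relative to 6. Over the 3 tumours the mean was lower relative to 9 and higher relative to 5, from -1.79 against Tfrc to 0.83 against Nono. The groups lay apart for 6 of these 14, namely Tfrc, Tuba1b, Ldhal6b, G6pd2, Actb and Rpl13a, all with Gk lower.

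**Figure D4:**
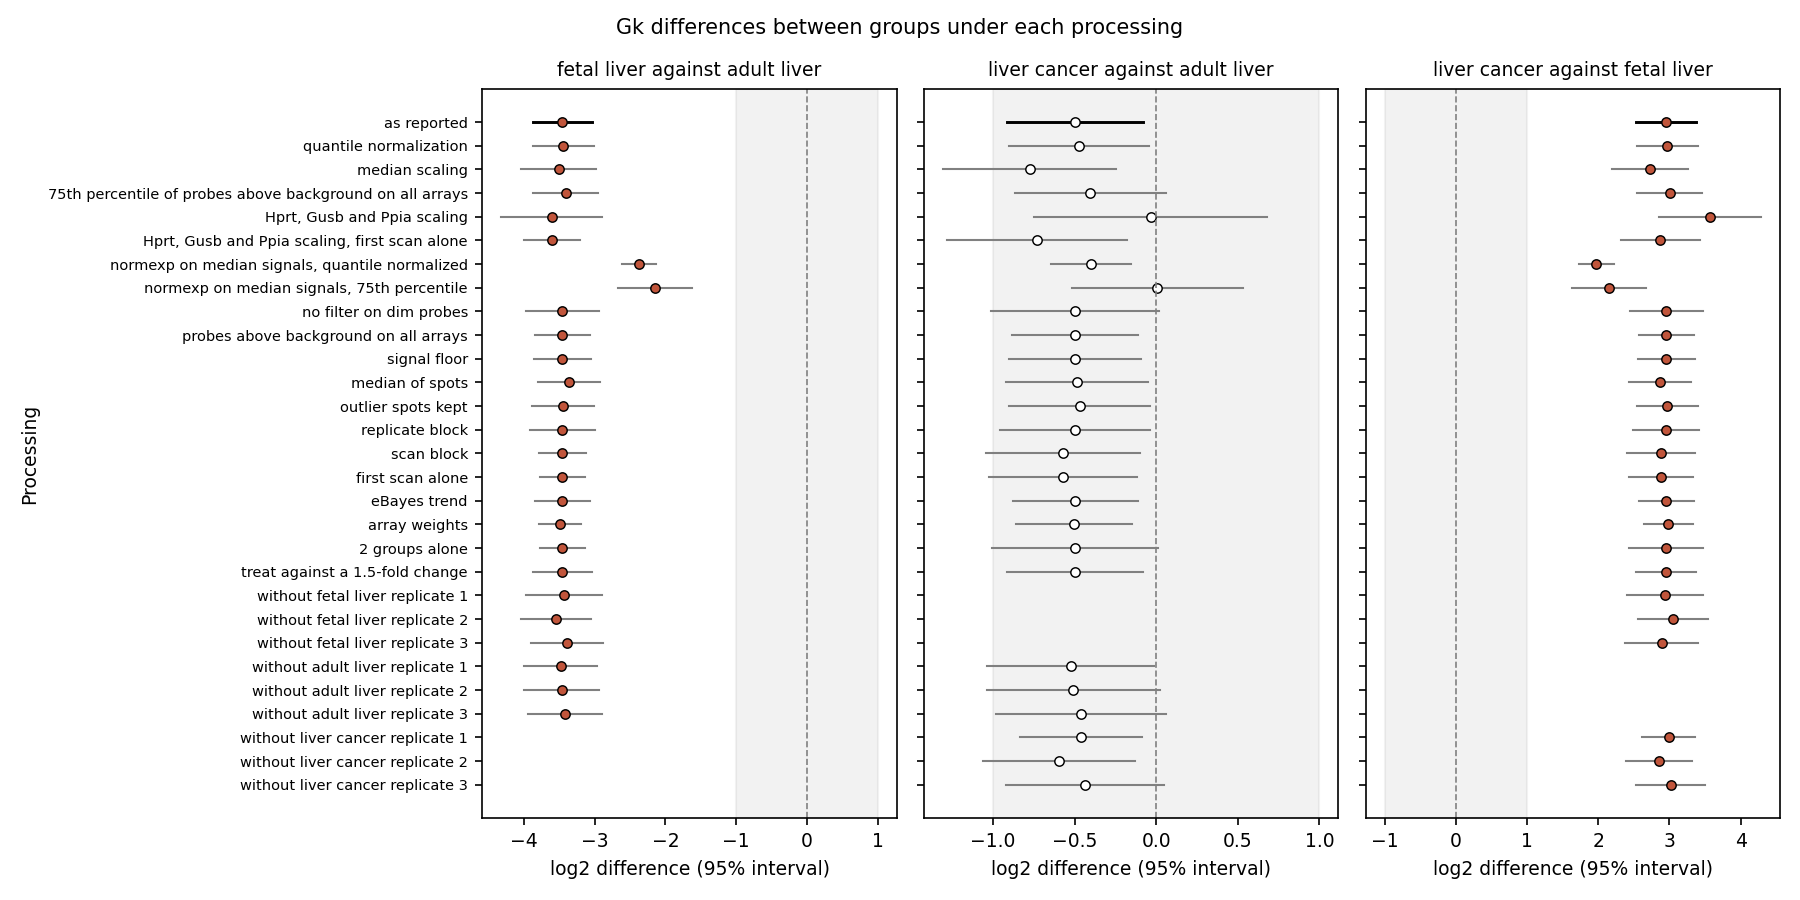
Log2 difference of Gk (points) with its 95% interval (lines) in the 3 comparisons, for the values as reported (black, top) and for each alternative processing or left-out array; filled points passed an adjusted p of 0.05 and 2-fold, and the grey band marks differences under 2-fold. Filled points run from -3.60 to -2.15 for fetal against adult liver and from 1.97 to 3.57 for liver cancer against fetal liver, while all points for liver cancer against adult liver are open.

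The RefSeq table used here lists 8 transcripts of Gk, 5 of them curated and 3 predicted, and the probe carries the identifier of 1 of these. Probe sequences were not used here, so which of the transcripts it measures, and whether related genes such as Gk2 or Gk5 add to the signal, was not tested. The same holds for Gapdh, G6pd2, Ldhal6b, Rpl13a, Ppia, Actb and Tuba1b, which have copies or related genes of similar sequence, so that values of these genes are uncertain.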

How the data were processed

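Cy3-labelled RNA of each sample was measured on its own array. The deposited intensity values were made by the authors with Agilent Feature Extraction 11.0.1.1, per the file headers, which subtracts background per spot and records no scaling between arrays. The raw median intensity of spot and local background and marks for outlier, saturated and well-above-background spots were also deposited. Control spots (1439) and 300 negative control spots were set aside. Outlier spots were dropped from the array concerned. Log2 processed signals of a probe's spots were averaged and the array's 75th percentile was subtracted. Probes well above background on at least 3 of 9 arrays, with at least 2 usable arrays per group, were tested (34103).

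Groups were compared with limma 3.58.1 in R 4.3.3, with 1 mean per group over all 9 arrays and Benjamini-Hochberg adjustment over all tested probes. Calls required an adjusted p below 0.05 and at least 2-fold difference. Differences were recomputed with other scalings, background corrections, filters, spot summaries, blocks and variance models, and without each array. Normexp was run on median signals since the files hold no mean spot signal. Its version scaled to the 75th percentile, the Hprt, Gusb and Ppia scaling within the first scan, and the division of spots by side of the array, were chosen after seeing the data. The named genes were the 3 most and 3 least like Gk among the RefSeq-named probes and among all others, and 2 lincRNA-named probes. Gk, the gene lists and this rule were chosen with earlier results of these data known. With 3 arrays per group, their number limits precision. Figures were drawn with Python 3.11.15 and matplotlib 3.10.9.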

Additional observations from a re-analysis of the deposited data

How the results depend on the processing

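Under 19 alternatives and on leaving out each array, Gk kept its direction and its call in fetal against adult liver (-3.60 to -2.15, limma adjusted p = 4.45e-08 to 3.23e-05; without 1 array -3.54 to -3.39) and in liver cancer against fetal liver (1.97 to 3.57, adjusted p = 4.37e-07 to 0.000167; without 1 array 2.86 to 3.04). Between liver cancer and adult liver it was not called under any of them (-0.78 to 0.0058; without 1 array -0.60 to -0.44). The adjusted p alone was below 0.05 in 4 of the 19 and without liver cancer replicate 1 (0.0431). The sign changed only with normexp scaled to the 75th percentile (0.0058). The cause was not tested. Among the 19, several left the Gk differences unchanged (-3.45, -0.50 and 2.96). These were other filters, the signal floor, the replicate block, a variance trend, fitting 2 groups alone and testing against a 1.5-fold change. They change only the error or the adjusted p, so they are no separate check of the size. The scan block and the first scan alone also left fetal against adult liver at -3.45, since all its arrays belong to the first scan. Scaling to Hprt, Gusb and Ppia gave -3.60 there with or without the second scan.

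Correlations of same-numbered samples' deviations ran from -0.16 to 0.31, with 4 of 9 above 0.1, among them all 3 of number 1, and 4 of 9 arrays were closest to one of their own number. The Gk deviations were alike in fetal liver (-0.04, 0.18 and -0.13) and liver cancer (-0.07, 0.19 and -0.12), but not in adult liver (-0.05, -0.02 and 0.07). Since not every correlation was above 0.1, the numbers were not taken to pair the samples. A replicate block changed no call of Gk. It cannot move the Gk differences (-3.45, -0.50 and 2.96), since every group holds each number, and acts only on their error. With the block 13584, 8439 and 14658 probes were called in the 3 comparisons, against 13489, 8205 and 14462. Normexp with quantile normalization gave 6913, 3389 and 7431, and testing only probes above background on all arrays, which are fewer, gave 7189, 4558 and 7846. With normexp scaled to the 75th percentile, 5949 were called between fetal and adult liver. Without 1 array the counts were 12498 to 12752, 6474 to 12048 and 13180 to 16355. Between liver cancer and adult liver 3958 were higher and 4247 lower, but 2782 and 5627 with median scaling and 5664 and 2292 when scaled to Hprt, Gusb and Ppia. Dim fetal signals limit how exactly the fetal level of Gk is known.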

Other observations

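The spread between Gk spots on the fetal arrays was related to their place on the array. On the 3 fetal arrays the 11 spots on the left side averaged 0.24, 0.36 and 0.25 log2 below the 9 spots on the right side. On the adult arrays the left side was higher by 0.01, 0.04 and 0.08. In liver cancer the left side was 0.03 higher on replicate 1, and lower by 0.02 and 0.25 on replicates 2 and 3. The difference between fetal and adult liver was -3.60 over the spots of the left side and -3.28 over those of the right side, that between liver cancer and adult liver -0.55 and -0.43, and that between liver cancer and fetal liver 3.05 and 2.84. The gap between the sides was thus small next to the fetal difference. On liver cancer replicate 3 it was not small next to the difference between the tumours and adult liver. The tumour mean was below the adult mean on each side. Both sides are spots of 1 probe on the same arrays, so they are no separate check of that difference.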
